A study of Homo sapiens with 3 samples.

Results

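Genes of the unfolded protein response and the integrated stress response were followed through RNA-seq of SH-SY5Y, a line subcloned from the human neuroblastoma line SK-N-SH. They are the 10 rows of the deposited table whose Ensembl identifiers carry the names ATF4, ATF5, ATF6, XBP1, DDIT3, ERN1, TRIB3, ASNS, CHAC1 and PPP1R15A in GENCODE 29. All were found, each under 1 identifier, among 60660 identifiers in the table. The series has 1 group of 3 libraries, SHSY5Y replicates 1, 2 and 3, each made from 500 ng of RNA of its own flask of adherent cells with a strand-marking mRNA kit and read as single 50-base reads; the cells were grown to about 60% confluency in Eagle's Minimum Essential Medium mixed 1:1 with a medium the labels do not name, with 10% fetal bovine serum. No treatment, genotype or second line is labelled, so no stressed sample stands beside these, and the levels below are those of a single clonal line in growth medium.

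The unfolded protein response is started by sensors in the membrane of the endoplasmic reticulum (ER) when unfolded proteins build up in its lumen. The integrated stress response is started by kinases that phosphorylate the translation factor eIF2, which slows most protein synthesis and favours the translation of ATF4 mRNA. The kinase PERK (gene EIF2AK3) belongs to both. Much of this control acts after transcription, through ATF4 translation, XBP1 splicing, ATF6 cleavage and IRE1 activation, and an mRNA level does not measure those steps.

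Values are FPKM, which divide the fragments of a gene by its transcript length and by the library's depth, so levels of different genes are set side by side per length. Each ± is an SD between the 3 libraries (n = 3). The limma p-values set the distance of a gene's mean from a fixed level against the spread between flasks, moderated over all genes tested. The exact p-values are for differences between 2 genes within libraries. Reads were estimated from the steps of low values at about 21700000, 28400000 and 43500000 in replicates 1, 2 and 3, where 3 reads on 1 kb of effective length correspond to 0.138, 0.106 and 0.0689 FPKM. That limit covers counting error only. The label was checked with 8 markers of the noradrenergic neuroblastoma type, which lay between 103 FPKM (ISL1) and 2405 FPKM (STMN2) and were all called above 1 FPKM. Of 13 markers of other cell types, CD3E and KRT5 were listed at 0 in every library and 3 were called above 1 FPKM, all of them genes of fibroblast matrix. These were DCN (14.7 ± 2.14 FPKM), LUM (3.95 ± 0.626) and COL1A1 (3.79 ± 0.456). The 13 markers summed to 25.3 to 28.3 FPKM in a library, and their part in the levels below was not tested.

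The mRNA of XBP1 carries the site that gives the unfolded protein response its best-known switch. The sensor IRE1 cuts the mRNA at a pair of hairpin loops, a ligase joins the ends, and the frameshift yields the active factor. The site lies on the reverse strand at chr22:28796107-28796172 (GRCh38), in exon 4 of a GENCODE transcript of 1850 bases and inside the coding sequence. It is shown in the unspliced and the spliced form, since the table holds 1 value for the gene and does not tell the forms apart. Capitals mark the 26 bases that are removed.
Unspliced XBP1: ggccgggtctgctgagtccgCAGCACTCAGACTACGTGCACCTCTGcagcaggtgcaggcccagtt
Spliced XBP1: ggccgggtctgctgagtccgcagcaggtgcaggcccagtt

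The cut falls within CNGCAGC at each end, and these letters recur exactly 26 bases apart in transcripts of 66 of 19669 coding genes (0.336%). Of 5 coding transcripts that GENCODE 29 lists for XBP1, 3 hold the unspliced form and 2 the spliced junction. The file gives no transcript values, so the share of spliced XBP1 was not analysed here.

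Promoters were read from RefSeq windows (GRCh38.p14) of 250 bases before to 50 after each start, which matched all 10 genes in 18 windows. Letters of known elements of the response were searched on both strands, and 4 genes held one. They are shown because they are the short sequences through which ATF4, ATF6 and XBP1 proteins are known to act on such genes. The letters TGATGNAA belong to the C/EBP-ATF response element, the usual site of ATF4, and stood 61 to 68 bases upstream of the ASNS start and, on the other strand, 202 to 209 bases upstream of the CHAC1 start. The ER stress element, CCAAT and CCACG with 9 bases between, stood 34 to 52 bases upstream of the XBP1 start. The cyclic AMP response element TGACGTCA stood 51 to 58 bases upstream of the PPP1R15A start. Capitals mark the match, and each line reads in the direction of the gene.
ASNS, chr7:97872439-97872506, reverse strand: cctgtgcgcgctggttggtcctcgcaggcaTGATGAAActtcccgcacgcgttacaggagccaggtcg
CHAC1, chr15:40953232-40953299, forward strand: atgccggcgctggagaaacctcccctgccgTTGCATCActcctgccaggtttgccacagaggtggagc
XBP1, chr22:28800573-28800651, reverse strand: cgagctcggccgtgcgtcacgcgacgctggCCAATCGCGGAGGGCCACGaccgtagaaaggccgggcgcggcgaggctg
PPP1R15A, chr19:48872333-48872400, forward strand: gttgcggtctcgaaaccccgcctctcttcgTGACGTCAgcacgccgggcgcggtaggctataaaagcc

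These letters are not equally rare. TGATGNAA was found in 3.62% of all 35116 windows, TGACGTCA in 1.85% and the ER stress element in 0.0769%. Counted by gene, the shares were 4.46%, 2.25% and 0.0916% of 27305 genes, beside 20%, 10% and 10% of the 10. The element TGACGTGG, which shares its first 6 letters with TGACGTCA and cannot match at the same place, was in 0.729% of windows and in no window of the 10 genes. A match describes the letters only, and binding was not measured. Only exact letters inside the windows were searched, so a gene without a match may still hold such an element.

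All 10 genes were called above 1 FPKM by limma's moderated test (Benjamini-Hochberg adjusted p = 2.99e-05 to 0.00174). The same call was made for 45.5% of all genes tested and 70.6% of protein-coding genes tested, and a call below for 43.7% and 24.6%, so such calls are common among coding genes. The median of the 10 was 9.28 FPKM, against 9.13 FPKM over 16750 protein-coding genes tested and 1.08 FPKM over all 31736 tested. Their means ran between 4.04 FPKM (CHAC1) and 95.5 FPKM (ASNS). Against a level of 5 FPKM, 7 genes were called above, CHAC1 was called below, and ATF5 and ERN1 were called neither. At that level 32.9% of all genes and 56.6% of coding genes were called above, and 37.4% of coding genes below.

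**Figure D1:**
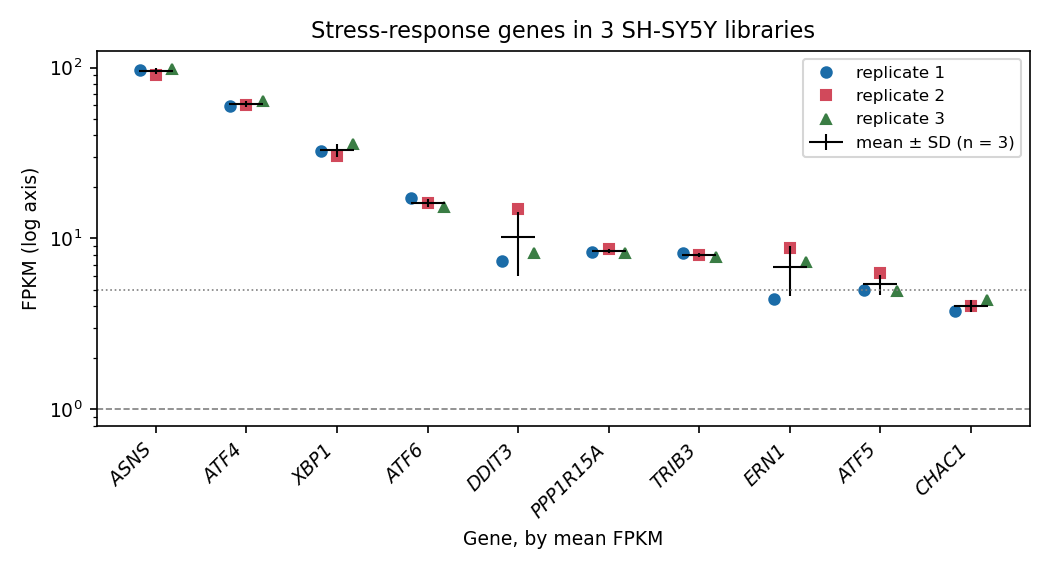
FPKM (log axis) of each of the 10 genes in replicates 1, 2 and 3 (coloured symbols), with the mean and SD over 3 libraries in black and lines at 1 FPKM (dashed) and 5 FPKM (dotted). ASNS, ATF4, XBP1 and ATF6 stand apart in steps, while DDIT3 and ERN1 have the widest spread.

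Among the sensors, ERN1 encodes IRE1, a kinase and nuclease of the ER membrane (chromosome 17, 64039142 to 64130819). It had 4.39, 8.80 and 7.25 FPKM in replicates 1, 2 and 3 (6.81 ± 2.24; log2 over 1 FPKM 2.59, SE 0.239, limma adjusted p = 0.00174). Replicate 1 was the low library, below 5 FPKM, and the other two lay above it. ATF6, a membrane-bound factor that is released by cleavage in the Golgi (chromosome 1, 161766294 to 161964070), had 17.107, 15.995 and 15.239 FPKM (16.1 ± 0.940; limma adjusted p = 3.91e-05). The 3 values lay close together, and every one was above every ERN1 value.

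ERN1 and ATF6 were each compared within libraries with a related sensor. PERK's gene EIF2AK3 stood at 10.0 ± 1.36 FPKM, and ERN1 lay below it by -0.60 ± 0.39 on the log2 scale in every library, though the ranges of FPKM overlapped. ATF6 lay below its paralog ATF6B (34.7 ± 1.16 FPKM) by -1.10 ± 0.09, with no overlap. ATF6 exceeded ERN1 by 1.29 ± 0.58, and this difference was 1.94 in replicate 1, 0.85 in replicate 2 and 1.06 in replicate 3. The gene ERN2, which encodes an IRE1 paralog of mucosal epithelium, was called below 1 FPKM at 0.186 ± 0.134.

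XBP1, the factor made from the spliced mRNA (chromosome 22, 28794555 to 28800597), had 32.2, 30.3 and 35.9 FPKM (32.8 ± 2.84; limma adjusted p = 3.39e-05). It exceeded ERN1, whose product cuts its mRNA, by 2.30 ± 0.54 on the log2 scale in every library, with 2.85 in replicate 1 and 1.77 in replicate 2. ATF4, the main effector of the integrated stress response (chromosome 22, 39519695 to 39522685), had 59.2, 60.5 and 63.7 FPKM (61.1 ± 2.34; log2 over 1 FPKM 5.80, SE 0.0691, limma adjusted p = 2.99e-05). Its mean lay at percentile 88.3 of protein-coding genes tested.

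ATF5, a relative of ATF4 that is also translated under stress (chromosome 19, 49928702 to 49933935), was much lower, at 4.98, 6.23 and 4.94 FPKM (5.38 ± 0.735; limma adjusted p = 0.000261). ATF4 exceeded ATF5 by 3.49 ± 0.21 on the log2 scale in every library, and the means stood 11.3 to 1. ATF5 shares 626 of its 2954 exonic bases with NUP62 on the other strand (62.4, 48.0 and 59.7 FPKM). It shares 75 with IL4I1 (0.119 ± 0.086 FPKM), also on the other strand. The library kit marks strand, but the value of ATF5 is uncertain while the authors' strand setting is unknown.

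DDIT3 encodes CHOP, a factor that ATF4 induces and that promotes cell death under lasting ER stress (chromosome 12, 57516588 to 57521737). It had 7.40, 14.9 and 8.16 FPKM in replicates 1, 2 and 3 (10.2 ± 4.15; log2 over 1 FPKM 3.15, SE 0.254, limma adjusted p = 0.0012). Replicate 2 was high and the other two were close to each other. DDIT3 shares 355 of its 1307 exonic bases with MARS and 58 with MBD6, both on the other strand. MARS, a transfer RNA synthetase gene, stood at 471, 396 and 457 FPKM and MBD6 at 13.7, 12.0 and 14.4, so both were lowest in the library where DDIT3 was highest. The value of DDIT3 is uncertain for the same reason, and the part of these genes in it was not tested.

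DDIT3 was lower than ATF4, XBP1 and HSPA5 and higher than CHAC1 in every library. ATF4 exceeded it by a log2 difference of 2.65 ± 0.55, with 2.98, 2.01 and 2.95 in replicates 1, 2 and 3. DDIT3 lay below XBP1 by -1.75 ± 0.64 and below HSPA5, the gene of the ER chaperone BiP (45.7 ± 4.19 FPKM), by -2.22 ± 0.68, each in 3 of 3 libraries. These 3 differences were smallest in size in replicate 2.

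The targets spanned the whole range. ASNS encodes asparagine synthetase, a classic ATF4 target of amino acid shortage (chromosome 7, 97852118 to 97872542), and was the highest of the 10 at 97.0, 90.8 and 98.7 FPKM (95.5 ± 4.15; log2 over 1 FPKM 6.44, SE 0.0706, limma adjusted p = 2.99e-05). It lay at percentile 93.0 of protein-coding genes tested and exceeded ATF4 by 0.64 ± 0.06 on the log2 scale in every library. The pseudogene AC005326.1, which overlaps the locus on the other strand and shares none of its exonic bases, was listed at 10.6, 0 and 0 FPKM. Named pseudogenes of ASNS reached at most 1.37 FPKM (ASNSP1) in a library, and those of ATF4 and XBP1 at most 0.206 FPKM (XBP1P1).

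CHAC1, whose enzyme degrades glutathione and which ATF4 and CHOP induce (chromosome 15, 40952962 to 40956519), was the lowest of the 10 at 3.74, 4.01 and 4.37 FPKM (4.04 ± 0.316; limma adjusted p = 0.000214). So the genes with TGATGNAA in their windows, ASNS and CHAC1, were the highest and the lowest. CHAC1 exceeded its paralog CHAC2, which also degrades glutathione (3.27 ± 0.174 FPKM), by 0.30 ± 0.08 on the log2 scale in every library. It lay below DDIT3 by -1.24 ± 0.55.

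TRIB3, a pseudokinase that ATF4 and CHOP induce and that restrains them in turn (chromosome 20, 362835 to 397559), had 8.15, 8.02 and 7.79 FPKM (7.99 ± 0.185; limma adjusted p = 5.14e-05). On the FPKM scale the 3 libraries differed by less than for any other of the 10, with a highest value 1.05 times the lowest. TRIB3 exceeded TRIB1 (5.20 ± 0.296 FPKM) by a log2 difference of 0.61 ± 0.10 and lay below TRIB2 (21.8 ± 1.58) by -1.43 ± 0.13. Its difference from DDIT3, -0.27 ± 0.54, changed sign between libraries (exact p = 0.75, n = 3).

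PPP1R15A encodes GADD34, the inducible subunit that directs a phosphatase to eIF2 and ends the response (chromosome 19, 48872392 to 48876057). It had 8.26, 8.67 and 8.24 FPKM (8.39 ± 0.246; limma adjusted p = 5.04e-05). Its constitutive paralog PPP1R15B stood at 20.6, 20.4 and 20.4 FPKM. PPP1R15A lay below PPP1R15B by -1.28 ± 0.05 on the log2 scale in every library, with no overlap.

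**Figure D2:**
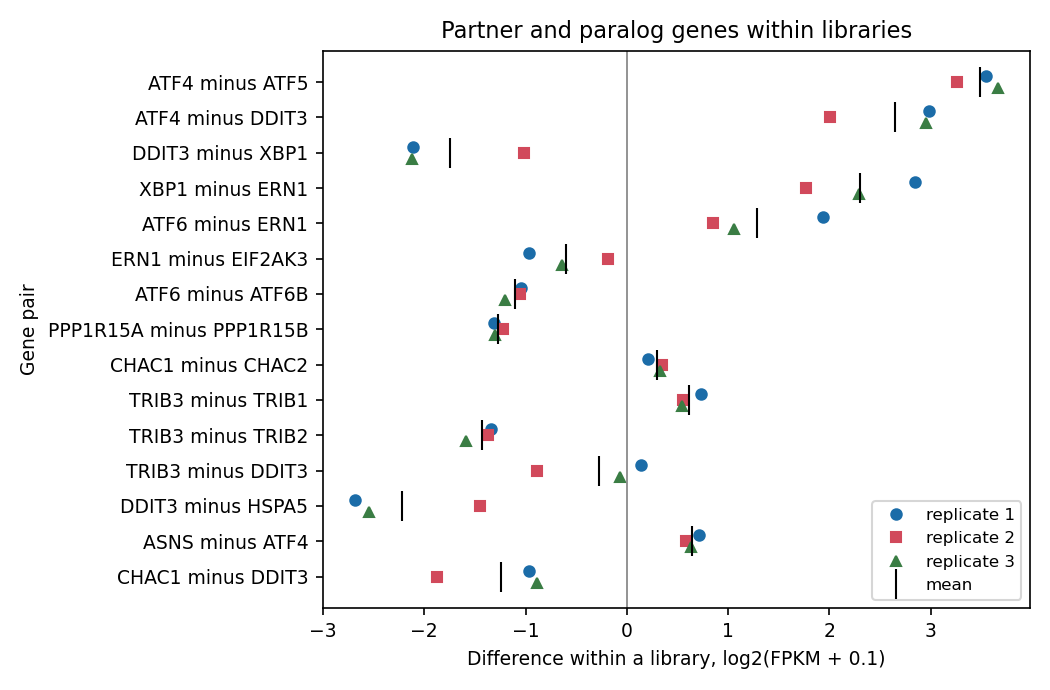
Difference within each library in log2(FPKM + 0.1), first gene minus second, for 15 pairs of partner or paralog genes; symbols are replicates 1, 2 and 3 and the black bar is their mean. In 14 pairs the 3 libraries lie on 1 side of 0, and pairs with DDIT3 or ERN1 spread the most.

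In all, 15 such pairs were compared by flipping signs over the libraries in an exact two-sided permutation test, which cannot fall below 0.25 with 3 libraries. The sign was the same in every library for 14 of them (exact p = 0.25, n = 3, 0.268 after Benjamini-Hochberg adjustment), so none passed the threshold of 0.05. The FPKM ranges were apart in 13 of the 15, the others being ERN1 with EIF2AK3 and TRIB3 with DDIT3.

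Ordered by mean, the genes ran ASNS, ATF4, XBP1, ATF6, DDIT3, PPP1R15A, TRIB3, ERN1, ATF5 and CHAC1. The first 4 were separated by log2 differences of 0.64 ± 0.06, 0.90 ± 0.09 and 1.02 ± 0.18, and no ranges overlapped. ATF6 and DDIT3 were apart in replicates 1 and 3 (1.20 and 0.89) but close in replicate 2 (0.10). Below that the order was mostly not firm, since DDIT3 with PPP1R15A (0.20 ± 0.50), TRIB3 with ERN1 (0.28 ± 0.53) and ERN1 with ATF5 (0.29 ± 0.40) did not differ beyond their spread. PPP1R15A exceeded TRIB3 by only 0.07 ± 0.05, in 3 of 3 libraries. ATF5 exceeded CHAC1 by 0.40 ± 0.22 in 3 of 3 libraries, and their ranges were apart. Of the 45 possible pairs of the 10 genes, 6 had overlapping ranges, and each of these included DDIT3 or ERN1. For the 9 neighbours the exact p was 0.25 to 1 (n = 3), and 0.375 or more after adjustment.

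The genes also differed in how steady they were between flasks. The SD of log2(FPKM + 0.1) was 0.0332 for TRIB3, 0.0415 for PPP1R15A, 0.0547 for ATF4 and 0.0634 for ASNS. These lay at percentiles 8.20, 12.3, 19.9 and 25.4 of 12208 protein-coding genes that averaged 1 FPKM or more, whose median was 0.105. Rescaled to TPM, the SDs were 0.045, 0.00616, 0.0827 and 0.108 in the same order, at percentiles 10.9, 0.238, 30.2 and 44.2 of these coding genes, whose median was then 0.119. PPP1R15A rather than TRIB3 was thus the steadiest of the 10 in TPM, and DDIT3 and ERN1 lay at percentiles 98.0 and 97.9 there. On the FPKM scale DDIT3 (0.543) and ERN1 (0.510) lay at percentiles 98.4 and 98.1. Their highest library was 2.02 and 2.01 times their lowest, against a median of 1.15 times over the coding genes.

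An SD over 3 libraries is itself imprecise, and the libraries that stood apart were not the same. Without replicate 2 the SD of DDIT3 fell to 0.0977, and without replicate 1 that of ERN1 fell to 0.196. At the estimated depth, the shortest coding transcript of DDIT3 corresponds to 71, 189 and 158 reads in replicates 1, 2 and 3, and that of ERN1 to 178, 468 and 589. Replicate 2 over replicate 1 was then 2.02 for DDIT3 (exact 95% interval 1.54 to 2.71) and 2.01 for ERN1 (1.68 to 2.40). These intervals cover counting error only and compare libraries, not conditions. Both genes have several transcripts of unequal length, 644 to 1067 bases for coding transcripts of DDIT3 and 2068 to 7876 for ERN1, and the part of transcript assignment in these differences was not tested. CHAC1 and ATF5 also rested on few reads, 53 and 52 in their lowest library by the same estimate.

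**Figure D3:**
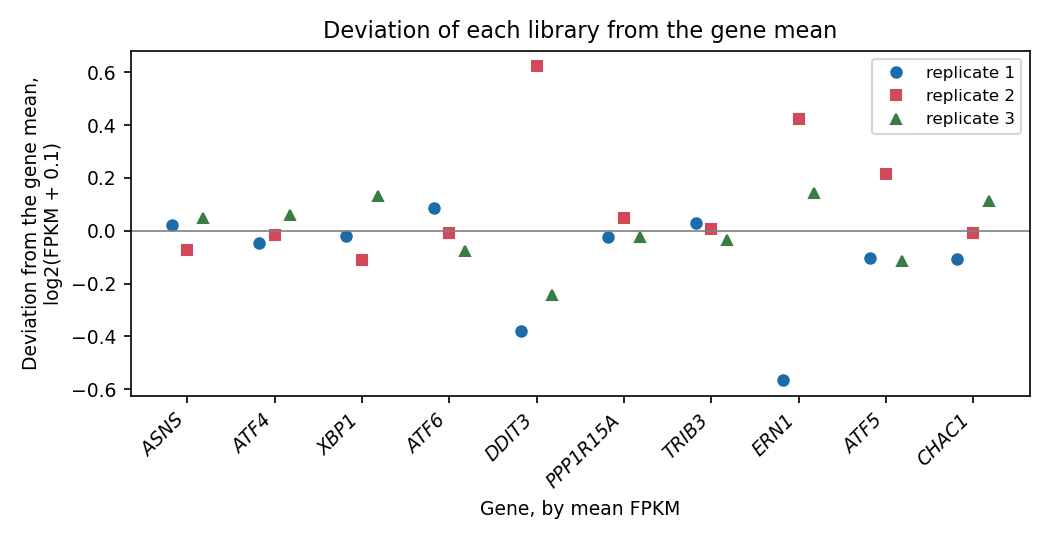
Deviation of each library from the gene's mean over 3 libraries, in log2(FPKM + 0.1), for the 10 genes in order of mean FPKM. DDIT3 in replicate 2 (0.62) and ERN1 in replicate 1 (-0.57) lie farthest from 0.

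Among the 10 genes, known partners of DDIT3 did not stand as high in replicate 2. In that library ATF4 deviated from its mean by -0.01, CHAC1 by -0.01, TRIB3 by 0.01 and PPP1R15A by 0.05 on the log2 scale, while DDIT3 deviated by 0.62, ERN1 by 0.42 and ATF5 by 0.22. Of the 10 genes, 2 were highest in replicate 1, 4 in replicate 2 and 4 in replicate 3. Genes of the amino acid and stress effector lists below, averaging 1 FPKM or more, were divided. The effector list also holds paralogs of TRIB3 and CHAC1, so it is not made of ATF4 targets alone. Highest in replicate 2 were 7 of 15 stress effector genes and 3 of 22 amino acid genes, against 31.0% of coding genes. Among the protein-coding genes nearest to DDIT3 over the 3 libraries, by Euclidean distance of log2 values, were ZNF827 (distance 0.26) and QRSL1 (0.28). Nearest to ASNS, the highest of the 10, were ARPC4 (0.03), TCAF1 (0.04) and PRPF19 (0.04). With 3 libraries, such closeness describes level and little else.

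**Figure D4:**
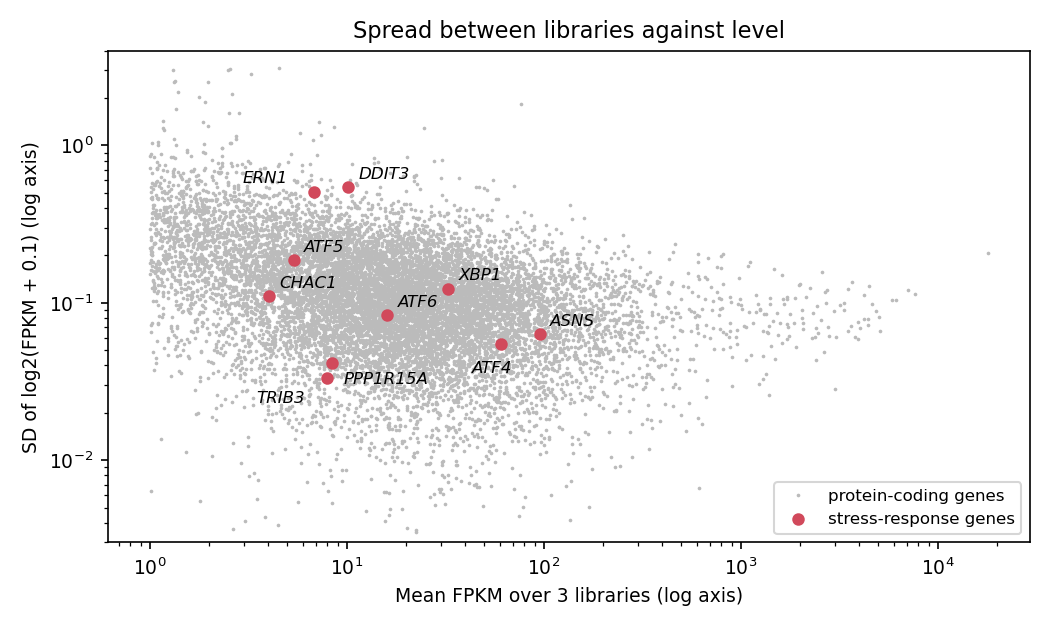
SD of log2(FPKM + 0.1) over 3 libraries (log axis) against mean FPKM (log axis) for 12208 protein-coding genes (grey) and the 10 stress-response genes (red). DDIT3 (0.543) and ERN1 (0.510) lie at percentiles 98.4 and 98.1 of these coding genes, and TRIB3 (0.0332) and PPP1R15A (0.0415) at percentiles 8.20 and 12.3.

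Other genes of these pathways had list medians above that of the 10. Of 12 sensor and kinase genes, whose median was 17.2 FPKM, 9 were called above 1 FPKM and 3 below. EIF2AK1, the heme-regulated eIF2 kinase, was highest at 164 ± 18.4 FPKM, followed by GCN1, a partner of the amino acid sensor GCN2 (100.5 ± 17.7), and ATF6B. Those below were ERN2, CREB3L1 (0.423 ± 0.198) and CREB3L3 (0.198 ± 0.0812), the last 2 being ER-bound factors of other tissues. The subunits of eIF2, its exchange factor eIF2B and the phosphatase, listed with the separate initiation factor gene EIF2A, were all called above (13 of 13, median 71.8 FPKM). EIF2A was highest at 273 ± 12.0 FPKM, with the eIF2 subunit gene EIF2S3 at 259 ± 34.8, the phosphatase gene PPP1CC at 177 ± 8.05, and EIF2B3 lowest at 17.018 ± 0.356.

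Genes that process ATF6 and XBP1 were also all called above (6 of 6, median 52.0 FPKM). The RNA ligase complex genes RTRAF (180.2 ± 5.34 FPKM), DDX1 (83.4 ± 4.97) and RTCB (55.8 ± 5.06), which rejoin cut XBP1, were the 3 highest. MBTPS2, the protease that releases ATF6 from the membrane, was lowest at 22.7 ± 0.279. Of 11 partner transcription factors, with their median at 17.1 FPKM, 9 were called above and 2 below. The nuclear factor Y subunit genes NFYB (38.6 ± 2.70 FPKM) and NFYC (38.4 ± 7.95), which bind CCAAT, stood below YY1 (57.2 ± 1.40). CEBPA (0.139 ± 0.0297) and the stress-induced gene NUPR1 (0.0757 ± 0.0634) were those called below.

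All 20 ER chaperone and folding genes were called above 1 FPKM, and their median was 54.7 FPKM. P4HB, a protein disulfide isomerase gene, stood at 392 ± 38.3 FPKM, the lectin chaperone gene CANX at 363 ± 10.8 and PPIB at 341 ± 28.8, while the oxidase gene ERO1B was lowest at 3.08 ± 0.895. The ER stress element seen in the XBP1 promoter was in the windows of 7 of 19 matched genes of this list (36.8%), against 25 of 27305 genes in all (0.0916%). The element is known from such genes, so its share in the list is a description and tests nothing. The 7 were HSPA5, HSP90B1, CALR, CANX, PDIA6, CRELD2 and ERO1B. Their means ran between 3.08 FPKM (ERO1B) and 363 FPKM (CANX), so the same letters went with unlike levels. ER-associated degradation had 17 of 18 genes called above (median 30.0 FPKM), led by the segregase gene VCP at 112 ± 9.58 FPKM and its cofactor NPLOC4 at 71.6 ± 2.45, then the ubiquitin-conjugating enzyme gene UBE2G2 at 68.9 ± 2.57, with DERL3 called below at 0.127 ± 0.112.

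**Figure D5:**
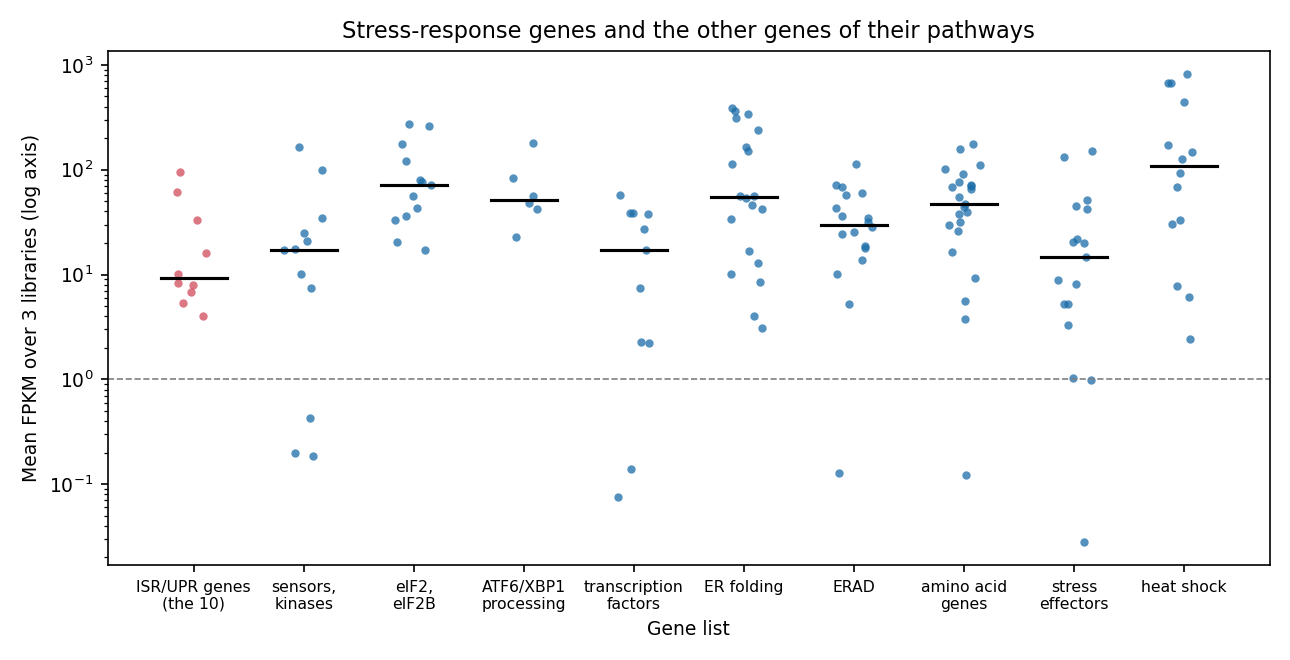
Mean FPKM over 3 libraries (log axis) of the 10 genes (red) and of the other genes of their pathways (blue), 1 point per gene, with the median of each list as a black bar and 1 FPKM dashed. The median of the 10 (9.28 FPKM) is the lowest of those drawn, and heat shock genes have the highest (110 FPKM).

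Of 23 amino acid genes known as ATF4 targets, 22 were called above 1 FPKM, and the list median was 47.2 FPKM. Transfer RNA synthetase genes led them, with GARS at 175 ± 16.4 FPKM, NARS at 159 ± 9.64 and EPRS at 111 ± 5.16. SLC7A11, the cystine transporter gene and a common ATF4 target, was the exception at 0.123 ± 0.0173 FPKM (limma adjusted p = 0.000132, below). TGATGNAA was in the windows of 6 of 17 matched genes of this list (35.3%), against 4.46% of all genes. The list holds known ATF4 targets, so this share too is a description. Most of these genes were lowest in replicate 2, 18 of the 22 that averaged 1 FPKM or more (16 of 22 after median-ratio rescaling), against 41.4% of coding genes (37.8% rescaled). This was not particular to the list. Lowest in replicate 2 were also 10 of 14 heat shock genes, 6 of 9 partner transcription factors and 11 of 20 ER folding genes. The count was 3 of 9 for sensors and kinases and 4 of 15 for stress effectors. ASNS was lowest in replicate 2 too, and DDIT3 was highest there.

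Among 17 stress effector genes (median 14.6 FPKM), 14 were called above 1 FPKM, 1 below and 2 neither. The translation inhibitor gene EIF4EBP1 (151 ± 16.5 FPKM), TXNIP (131 ± 19.7) and the death receptor gene TNFRSF10B (51.5 ± 2.50), a CHOP target, were highest. FGF21, a hormone gene induced by ATF4 in other tissues, was called below at 0.0283 ± 0.026, and ADM2 (0.991 ± 0.223) and FAM129A (1.02 ± 0.718) were called neither.

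Heat shock genes, a mixed list of chaperone, co-chaperone and regulator genes outside the ER, had a median of 110 FPKM, and all 14 were called above 1 FPKM. The list holds constitutive and inducible genes, so its median does not measure a stress response. HSPA8 (817 ± 111 FPKM), HSP90AA1 (677 ± 64.1) and HSP90AB1 (669 ± 11.7) led the list, and BAG3, an inducible co-chaperone gene, was lowest at 2.45 ± 0.308. No set test was run on any of these lists, and their medians are descriptions beside the 9.13 FPKM of coding genes.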

How the data were processed

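The deposited table holds FPKM made by the authors, 1 value per Ensembl identifier and library. Cufflinks 2.2.1, TopHat2 2.1.1, FastQC 0.10.1, bcl2fastq and the build hg38 appear in the submitters' processing notes. What each did, the annotation and the strand setting were not given in the sources used here. Identifiers were matched to GENCODE 29 (57046 of 60660). A shared name took the identifier with the highest mean.

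FPKM are not counts. Genes above 0 in at least 1 library and with at least 2 values were tested on log2(FPKM + 0.1) against 1 FPKM with limma 3.58.1 in R 4.3.3, across all 31736 genes (Benjamini-Hochberg adjusted p under 0.05). Fold differences on this scale understate those of low genes. The test was checked on simulated data with normal noise drawn from each gene's own SD, which does not check whether the real spread has that form. Depth was estimated from genes with 1 transcript of at least 600 bases, assuming fragments of 200 bases. There, 97.0% to 97.3% of low values lay within 0.1 of a whole read, where chance gives 20% for a depth fixed beforehand. The depth was picked by this same share, so the share does not check it independently. Python 3.11.15 was used for other steps.

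Members, lists and pairs were chosen with earlier results of these data known. Named are the 10 genes, pair genes, markers, the 3 highest and the lowest gene of each list, and the nearest 3 genes to the highest and the most variable member, of which 1 is not reported here. Other genes named make up a small count, overlap a member or hold a promoter element, and were chosen after their values were seen. Alternatives were other pseudocounts, filters, scalings and levels, a count without a test, and each library left out.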

Additional observations from a re-analysis of the deposited data

How the results depend on the processing

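All 10 genes were called above 1 FPKM under both other pseudocounts, both other filters, both rescalings, at 0.5 FPKM and without each library, where the adjusted p of limma reached at most 0.0164 (ERN1 without replicate 2). At 5 FPKM the log2 difference of CHAC1 turned to -0.30 and 1 of the 10 genes was called below. At that level the genes called below numbered 4 among partner transcription factors, 2 among ER folding genes, 2 among amino acid genes, 4 among stress effectors and 1 among heat shock genes, and 1 marker of other cells was called above. Among those markers, 5 were called above at 0.5 FPKM and 5 in the count without a test. With a mean of at least 0.1 FPKM required, 1 partner factor, 0 stress effectors and 2 other-cell markers were called below, since fewer low genes were tested. With a pseudocount of 0.01, 0 genes of ER-associated degradation were called below by limma, where DERL3 is listed at 0 in replicate 2. Between 2 genes, differences turned sign in 3 cases when 1 library was left out. DDIT3 minus PPP1R15A ran between -0.0853 (without replicate 2) and 0.38, TRIB3 minus ERN1 between -0.015 (without replicate 1) and 0.49, and TRIB3 minus DDIT3 between -0.48 and 0.0356 (without replicate 2). The cause was not tested. The other pair differences kept their sign in these alternatives. The SD of log2 values moved by over 1.5 times for each of the 10 genes when some library was left out, a bound set after the values were seen. It ran between 0.0977 and 0.709 for DDIT3, 0.196 and 0.699 for ERN1, 0.00786 and 0.233 for ATF5, 0.0634 and 0.172 for XBP1, 0.0706 and 0.155 for CHAC1, 0.0491 and 0.117 for ATF6, 0.0175 and 0.0849 for ASNS, 0.0222 and 0.0753 for ATF4, 0.00196 and 0.0518 for PPP1R15A, and 0.016 and 0.0462 for TRIB3. Rescaled to TPM it was 0.108 for ASNS, 0.0827 for ATF4 and 0.00616 for PPP1R15A. No paired analysis was possible because the series has 1 group. CHAC1, ATF5 and DDIT3 are the members that depth limits most. In replicate 1 their shortest coding transcripts correspond to 53, 52 and 71 estimated reads, and their longest to 134, 202 and 139.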

Other observations

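GDF15 and STC2, secreted factors of the effector list singled out after their values were seen, had their lowest library in common with ERN1. Other secreted factors of that list did not all do so, since VEGFA was lowest in replicate 3 and ADM2 in replicate 2. GDF15, a cytokine gene induced by ATF4 and p53, had 28.1, 56.0 and 52.0 FPKM in replicates 1, 2 and 3, and STC2, a glycoprotein gene induced by ATF4, had 5.84, 10.0 and 8.68. ERN1 had 4.39, 8.80 and 7.25. DNAJB9, an ER co-chaperone gene known as an XBP1 target and also picked after its values were seen, ran the other way at 13.5, 8.995 and 7.83 FPKM. It does not stand for its list. Of 20 ER folding genes, 6 were lowest in replicate 1, 11 in replicate 2 and 3 in replicate 3. Of 15 stress effector genes that averaged 1 FPKM or more, 10 were lowest in replicate 1, also after median-ratio rescaling, against 33.0% of coding genes. With 1 library per flask these differences were not tested.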
